A study of Mus musculus with 22 samples.

Results

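The 9 genes described here, C1ql2, Enpp2, Mmp25, Slc35d3, Tmem229b, Ephx2, Pak1, Trh and Selenbp1, were picked from earlier results of these data because each was strongly or precisely higher in at least 1 of 4 inductions of a pluripotency factor in mouse embryos. They are 9 of the 37680 gene IDs of the deposited count table, and each symbol matched 1 ID. Their fold changes on induction chose them, so those values are given below as a description without a test, and tests are kept to contrasts between pools that had no doxycycline.

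The RNA came from 22 pools of whole C57BL/6 embryos in 8 groups. Embryos of the Oct4 line carried ROSA26tg/+ and Oct4tg/+, and embryos of the Nanog line carried ROSA26tg/+ and Nanogtg/+, in induced (dox+) and control (dox-) pools alike, since fathers were homozygous for both transgenes. The Nanog line had 3 induced and 2 control pools at E9.5 and again 3 induced and 2 control pools at E7.5. The Oct4 line had 3 induced and 3 control pools at each stage. Mothers of E7.5 induced pools were injected with doxycycline at E4.5 and then drank it, and mothers of E9.5 induced pools drank it from E6.5. Each E7.5 pool combined 8 to 12 embryos, and each E9.5 pool 3. No group received doxycycline without an inducible transgene, so the drug and the factor cannot be told apart in any induction. The labels do not give the promoter that drives the transgenes.

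Oct4, encoded by Pou5f1, is a POU-domain transcription factor and Nanog is a homeodomain transcription factor. Both hold the epiblast in a pluripotent state and are shut down as the germ layers form. The 9 genes belong to no single pathway. C1ql2 encodes a secreted C1q-like protein that organises synapses. Enpp2 encodes autotaxin, a secreted enzyme that makes the signalling lipid lysophosphatidic acid and is needed for the vessels of the yolk sac. Trh encodes the precursor of thyrotropin-releasing hormone. Mmp25 encodes a matrix metalloproteinase anchored in the cell membrane and known from leukocytes, and Slc35d3 encodes a member of the nucleotide sugar transporter family that platelet dense granules need. Ephx2 encodes soluble epoxide hydrolase, Selenbp1 encodes a selenium-binding protein that oxidises methanethiol, Pak1 encodes a kinase activated by Rac and Cdc42 that acts on the cytoskeleton, and Tmem229b encodes a little-studied membrane protein.

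Promoter windows are shown for 6 of the genes because they stand for the different inductions in which their fold change was largest. That was Oct4 E7.5 for C1ql2, both E7.5 inductions for Mmp25 and Slc35d3, Oct4 E9.5 for Tmem229b, and Nanog E9.5 for Trh and Selenbp1. Each RefSeq window (GRCm38.p6) runs from 250 bases before to 50 bases after an annotated start, and its letters matched NCBIM37, the build of the count table, at 1 place. The windows lie at chr1:122236909-122237208 (plus strand) for C1ql2, chr17:23782187-23782486 (minus) for Mmp25, chr10:19571216-19571515 (minus) for Slc35d3, chr12:80084420-80084719 (minus) for Tmem229b, chr6:92194595-92194894 (minus) for Trh and chr3:94736755-94737054 (plus) for Selenbp1. Sequences read 5′ to 3′ along the gene's own strand, and capitals mark the letters of a searched motif on either strand.
C1ql2: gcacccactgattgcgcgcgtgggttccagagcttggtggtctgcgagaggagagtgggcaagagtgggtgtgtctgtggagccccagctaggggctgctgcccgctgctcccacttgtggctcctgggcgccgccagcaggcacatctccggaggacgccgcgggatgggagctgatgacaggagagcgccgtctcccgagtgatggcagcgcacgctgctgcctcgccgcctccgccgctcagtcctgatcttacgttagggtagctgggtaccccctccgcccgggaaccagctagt
Mmp25: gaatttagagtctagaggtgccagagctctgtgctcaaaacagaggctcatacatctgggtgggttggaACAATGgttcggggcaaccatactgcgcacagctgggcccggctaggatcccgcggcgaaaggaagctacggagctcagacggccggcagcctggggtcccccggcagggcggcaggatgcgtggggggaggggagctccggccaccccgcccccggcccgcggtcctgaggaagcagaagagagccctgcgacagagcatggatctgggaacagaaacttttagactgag
Slc35d3: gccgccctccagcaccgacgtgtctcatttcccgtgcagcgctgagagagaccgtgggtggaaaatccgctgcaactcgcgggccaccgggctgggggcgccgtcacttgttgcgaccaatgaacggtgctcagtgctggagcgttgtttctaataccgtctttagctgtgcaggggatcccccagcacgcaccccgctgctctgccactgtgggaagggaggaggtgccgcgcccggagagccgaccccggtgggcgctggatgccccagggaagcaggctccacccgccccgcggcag
Tmem229b: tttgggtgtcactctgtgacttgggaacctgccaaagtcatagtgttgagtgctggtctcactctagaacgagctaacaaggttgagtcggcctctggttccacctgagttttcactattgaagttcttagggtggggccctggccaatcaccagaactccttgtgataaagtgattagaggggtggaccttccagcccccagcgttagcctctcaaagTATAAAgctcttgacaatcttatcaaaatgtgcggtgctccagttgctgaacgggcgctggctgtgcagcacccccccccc
Trh: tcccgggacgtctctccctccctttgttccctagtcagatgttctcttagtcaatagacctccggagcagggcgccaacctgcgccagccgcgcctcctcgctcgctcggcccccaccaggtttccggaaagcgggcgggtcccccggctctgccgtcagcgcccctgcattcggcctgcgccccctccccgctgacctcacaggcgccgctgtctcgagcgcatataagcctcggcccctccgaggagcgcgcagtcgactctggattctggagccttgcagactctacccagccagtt
Selenbp1: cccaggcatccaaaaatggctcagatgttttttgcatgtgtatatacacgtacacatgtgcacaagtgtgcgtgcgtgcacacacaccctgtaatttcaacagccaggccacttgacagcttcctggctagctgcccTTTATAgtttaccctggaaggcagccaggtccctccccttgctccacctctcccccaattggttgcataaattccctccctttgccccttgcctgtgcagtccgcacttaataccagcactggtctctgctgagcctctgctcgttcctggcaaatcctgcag

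Of the 9 genes, 7 matched the promoter table, with 9 windows, since Tmem229b and Pak1 each have a pair of annotated starts. Enpp2 and Ephx2 are named only. Each window was searched on both strands for 4 motifs, which did not overlap one another where found. They were the octamer ATGCAAAT, the Sox core ACAATG, the Nanog homeodomain core TAATGG and the TATA box TATAAA. The octamer and the Nanog core were in 0 of the 9 windows, and they were in 1.75% and 7.69% of all 32544 promoter windows. ACAATG stood at -181 from the start of Mmp25, a motif present in 12.4% of all windows. TATAAA stood at -31 in the printed window of Tmem229b and, on the opposite strand, at -113 in that of Selenbp1, and was present in 13.6% of all windows. The windows of C1ql2 (67.3% G and C), Mmp25 (63.3%), Slc35d3 (67.7%) and Trh (67.0%) were richer in G and C than the printed windows of Tmem229b (52.3%) and Selenbp1 (53.0%). The printed Tmem229b window was chosen for its TATAAA match and lies 24145 bases from the GENCODE start; the window of its other start, 350 bases from the GENCODE start, had 72.7% G and C and no match. A match describes letters and is not a site of binding.

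The induced genes were followed in every pool as a check of the labels. Pou5f1 had 239, 236 and 258 CPM in Oct4 E9.5 induced pools, against 0.831, 0.400 and 1.21 CPM in their controls, where CPM is the count scaled by library size with TMM factors over the 22 libraries. At E7.5 it had 663, 684 and 518 CPM in Oct4 induced pools, against 266, 229 and 232 CPM in controls. Nanog had 327, 321 and 325 CPM in Nanog E9.5 induced pools, against 2.28 and 1.97 CPM in controls. At E7.5 Nanog had 104, 58.9 and 118 CPM in Nanog induced pools, against 22.6 and 17.0 CPM in controls, with a log2 fold change of 2.24 ± 0.45 (SE) that did not pass the test (edgeR adjusted p = 0.0752). The other factor was also higher at E7.5: Pou5f1 rose by 1.22 ± 0.12 in Nanog E7.5 (edgeR adjusted p = 0.000955) and Nanog by 0.62 ± 0.13 in Oct4 E7.5 (adjusted p = 0.0272). The induced factor was thus above its controls in all 12 induced pools, and E7.5 controls of both lines held Pou5f1 without induction.

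Libraries held 4.72 to 42.3 M counts and 17771 to 21262 detected genes, and 3 counts, the limit that a count of 0 allows, stood for 0.0789 to 0.586 CPM (counting error only). The markers of the labelled stages were present: the 5 epiblast markers summed to 745 to 2102 CPM in E7.5 pools and the 5 primitive blood markers to 1225 to 7000 CPM in E9.5 pools. Gene models shorter than 80 nucleotides summed to 0.564 to 2.09 CPM in the Nanog E7.5 induced and all E9.5 pools, and to 29.0 to 51.9 CPM in all Oct4 E7.5 pools and the Nanog E7.5 controls. So the Nanog E7.5 induced pools (0.575 to 1.08 CPM) stood apart from their own controls (31.4 to 36.7 CPM), and their mitochondrial share was higher, 5.27% to 8.26% against 3.30% to 3.63%. The part of this in the Nanog E7.5 values and in the stage differences below was not tested.

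**Figure D1:**
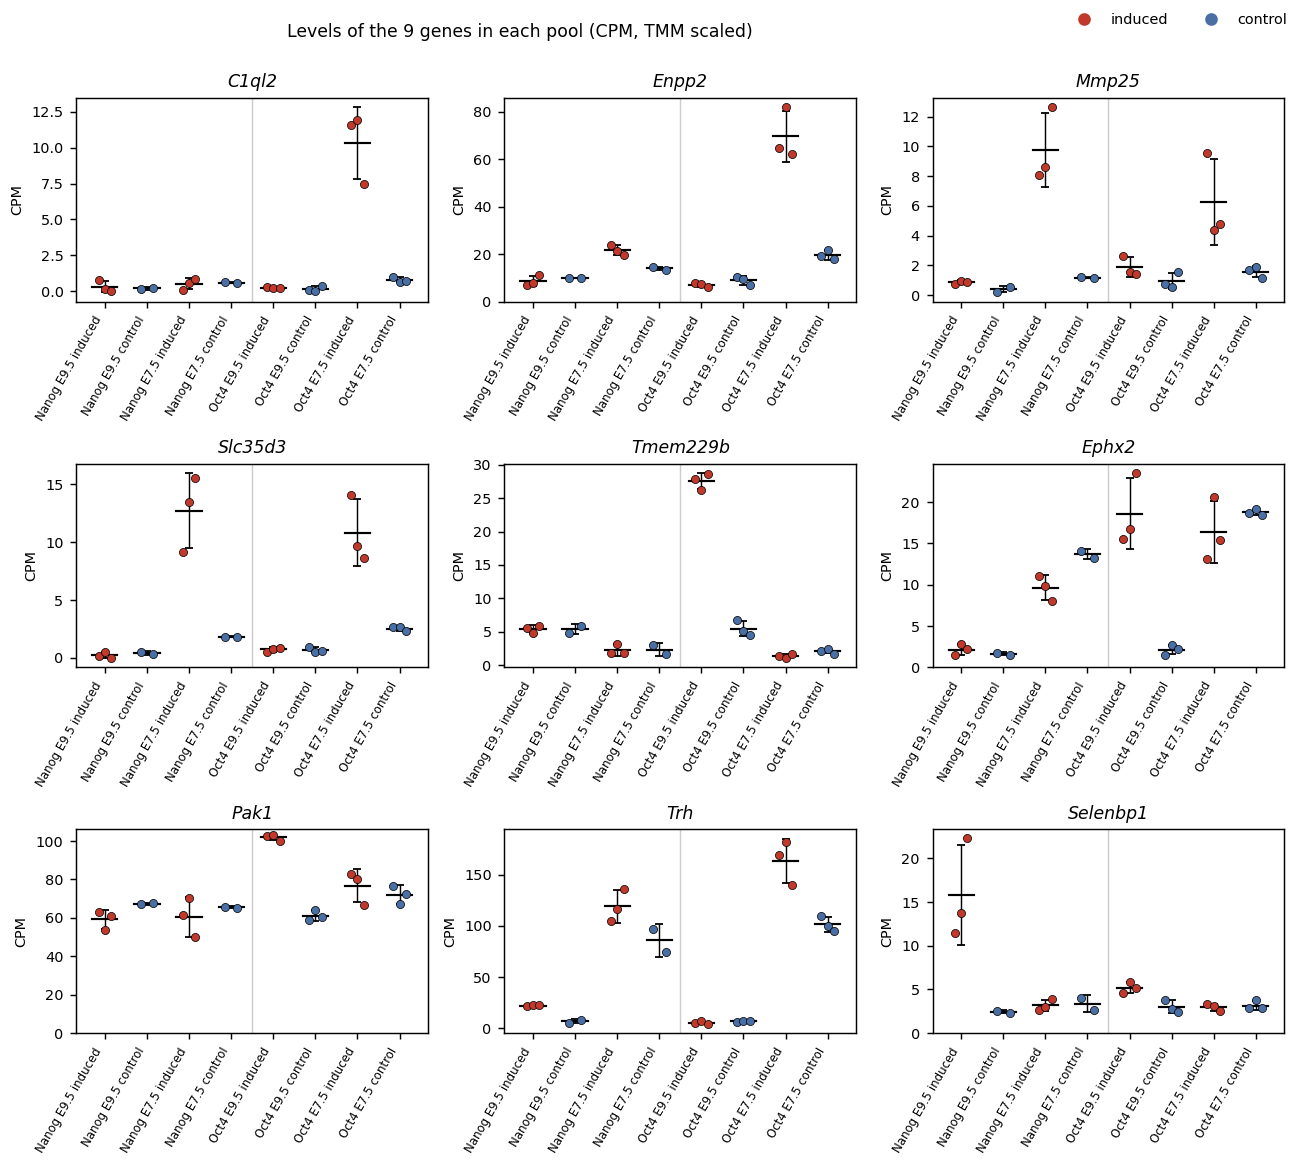
Level of each gene in each pool in CPM, with induced pools in red, controls in blue, black bars for the mean and whiskers for the SD over pools (n = 3, or 2 for Nanog controls). C1ql2 and Enpp2 are highest in Oct4 E7.5 induced pools, Mmp25 and Slc35d3 are high in both E7.5 induced groups, Tmem229b and Pak1 are highest in Oct4 E9.5 induced pools and Selenbp1 in Nanog E9.5 induced pools.

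Among the secreted products, C1ql2 (chr1, 122237159 to 122239748, plus strand, NCBIM37) was close to silent outside 1 group. It had 11.6, 12.0 and 7.47 CPM in Oct4 E7.5 induced pools, against 0.970, 0.656 and 0.710 CPM in their controls. Each induced pool stood far above each control, and the log2 fold change was 3.77 ± 0.24 (SE). In Nanog E7.5 it had 0.0917, 0.546 and 0.872 CPM in induced pools, against 0.602 and 0.578 CPM in controls, so there the groups overlapped and the gene was filtered out as low. At E9.5 no pool of either line held more than 4 counts of C1ql2.

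Enpp2 (chr15, 54670453 to 54751701, minus strand) was present in every group. It had 64.9, 82.1 and 62.4 CPM in Oct4 E7.5 induced pools, against 19.2, 22 and 18.0 CPM in controls, a log2 fold change of 1.85 ± 0.12. In Nanog E7.5 it had 24.0, 21.2 and 19.8 CPM in induced pools, against 14.6 and 13.5 CPM in controls, a log2 fold change of 0.61 ± 0.16. Induced and control pools did not overlap in either line at E7.5, and the Nanog induced level was near that of the Oct4 controls. At E9.5 the groups overlapped in both lines, with 6.16 to 7.71 CPM in Oct4 induced and 7.03 to 10.4 CPM in Oct4 control pools, and 6.97 to 11.1 CPM in Nanog induced and 9.86 to 10.1 CPM in Nanog control pools. The visceral endoderm, a tissue known to make Enpp2, was followed by 9 markers. They summed to 3775 to 4683 CPM in Oct4 E7.5 induced pools and 4326 to 5552 CPM in controls, and to 1350 to 2082 CPM in Nanog E7.5 induced pools and 3380 to 3822 CPM in controls, with no marker at 0. The summed markers overlapped between the groups in Oct4 E7.5 and were lower in the induced pools in Nanog E7.5. The part of visceral endoderm in the Enpp2 values was not tested. In RNA of whole embryos, fewer cells of a type and less RNA per cell cannot be told apart.

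Trh (chr6, 92192055 to 92194644, minus strand) was above its controls in 3 inductions without overlap. It had 21.3, 23.0 and 22.3 CPM in Nanog E9.5 induced pools, against 5.49 and 8.14 CPM in controls, a log2 fold change of 1.73 ± 0.17. In Oct4 E7.5 it had 169, 182 and 140.0 CPM in induced pools, against 109.5, 100.2 and 94.7 CPM in controls, a log2 fold change of 0.71 ± 0.10. In Nanog E7.5 it had 105, 117 and 136 CPM in induced pools, against 97.5 and 74.7 CPM in controls, with a log2 fold change of 0.45 ± 0.16. The Oct4 line at E9.5 went the other way in its means, with 5.50, 6.84 and 4.29 CPM in induced pools and 6.54, 7.54 and 7.51 CPM in controls, and these pools overlapped. The induced level of Nanog E9.5 was still far below any E7.5 pool. The 5 node and notochord markers summed to 31.4 to 33.0 CPM in Nanog E9.5 induced pools and 31.3 to 32.8 CPM in controls, and to 95.8 to 121 CPM in Oct4 E7.5 induced pools and 75.1 to 92.1 CPM in controls, with none at 0. In Nanog E7.5 they summed to 72.5 to 90.1 CPM in induced pools and 55.7 to 71.4 CPM in controls. Single markers went both ways. Of the 5, edgeR called 2 higher and 1 lower in Oct4 E7.5 (6.17% of all genes called). In Nanog E7.5 it called 1 higher and 1 lower (7.78% of all genes called). The part of node and notochord in the Trh values was not tested in any induction.

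Mmp25 and Slc35d3, a protease and a transporter, were high in both E7.5 inductions. Mmp25 (chr17, 23766425 to 23782236, minus strand) had 8.07, 8.61 and 12.6 CPM in Nanog E7.5 induced pools, against 1.2 and 1.16 CPM in controls, a log2 fold change of 3.01 ± 0.35. In Oct4 E7.5 it had 9.58, 4.38 and 4.76 CPM in induced pools, against 1.68, 1.91 and 1.18 CPM in controls, a log2 fold change of 2.01 ± 0.34. The first Oct4 induced pool lay above the other two, and no induced pool reached down to a control. At E9.5 it was low, with 2.66, 1.56 and 1.43 CPM in Oct4 induced pools and 0.727, 0.534 and 1.58 CPM in controls, which overlapped (log2 fold change 1.18 ± 0.41). In Nanog E9.5 it had 0.775, 0.980 and 0.906 CPM in induced pools and 0.247 and 0.555 CPM in controls, which did not overlap, and was filtered out as low.

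The 8 leukocyte markers, read because neutrophils carry Mmp25, summed to 2.91 to 9.72 CPM in Nanog E7.5 induced pools and 5.87 to 6.01 CPM in controls, with Camp, Elane and Ngp at 0 in both groups. In Oct4 E7.5 they summed to 4.56 to 5.79 CPM in induced pools, where Elane was at 0, and 1.42 to 3.26 CPM in controls, where Camp, Elane and Ngp were at 0. The summed markers thus overlapped between the groups in the Nanog line and were higher in the induced pools of the Oct4 line. Of the 8, 2 passed the filter in Nanog E7.5 and 3 in Oct4 E7.5, where 1 was called higher (6.17% of all genes called). The part of leukocyte RNA in the Oct4 E7.5 values was not tested.

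Slc35d3 (chr10, 19567723 to 19571265, minus strand) had 9.17, 13.5 and 15.5 CPM in Nanog E7.5 induced pools, against 1.80 and 1.85 CPM in controls, a log2 fold change of 2.77 ± 0.31. In Oct4 E7.5 it had 14.1, 9.67 and 8.65 CPM in induced pools, against 2.65, 2.65 and 2.29 CPM in controls, a log2 fold change of 2.12 ± 0.21. Both induced groups covered about the same range, and neither touched its controls. At E9.5 it was under 1 CPM in all pools and was filtered out as low in both inductions. The 5 markers of megakaryocytes and platelets summed to 2.32 to 3.61 CPM in Nanog E7.5 induced pools and 8.27 to 12.0 CPM in controls, where Gp9 was at 0. In Oct4 E7.5 they summed to 1.69 to 2.88 CPM in induced pools and 7.76 to 10.3 CPM in controls. Of the 5, 2 passed the filter in Nanog E7.5, and 1 was called lower (7.78% of all genes called). In Oct4 E7.5, 1 passed and was called lower (6.17% of all genes called). The part of megakaryocytes and platelets in the Slc35d3 values was not tested.

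Several marker lists differed in the same E7.5 pools. The 5 epiblast markers summed to 1666 to 2102 CPM in Nanog E7.5 induced pools and 762 to 763 CPM in controls, and to 1464 to 2084 CPM in Oct4 E7.5 induced pools and 745 to 881 CPM in controls, with none at 0. The 5 primitive blood markers went the other way, at 8.07 to 17.0 CPM in Nanog E7.5 induced pools and 64.1 to 98.04 CPM in controls, and at 7.23 to 13.4 CPM in Oct4 E7.5 induced pools and 83.8 to 147 CPM in controls. The 4 somite markers were also low, at 1.38 to 3.19 CPM in Nanog E7.5 induced pools and 24.2 to 24.7 CPM in controls, with Myf5 at 0 in both, and at 1.48 to 2.49 CPM in Oct4 E7.5 induced pools and 14.9 to 24.4 CPM in controls. The part of these shifts in the E7.5 values of C1ql2, Enpp2, Mmp25, Slc35d3 and Trh was not tested.

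Tmem229b and Ephx2 were high in Oct4 E9.5 induced pools and not in the Nanog pools of that stage. Tmem229b (chr12, 80062782 to 80108614, minus strand) had 27.8, 26.2 and 28.6 CPM in Oct4 E9.5 induced pools, against 6.75, 5.14 and 4.48 CPM in controls, a log2 fold change of 2.36 ± 0.13. In Nanog E9.5 it had 5.62, 4.74 and 5.80 CPM in induced pools and 4.87 and 5.92 CPM in controls, so the groups overlapped. In Oct4 E7.5 the order was turned round, with 1.31, 1.04 and 1.62 CPM in induced pools and 2.13, 2.37 and 1.73 CPM in controls, without overlap (log2 fold change -0.63 ± 0.25). In Nanog E7.5 it had 1.74 to 3.24 CPM in induced and 1.62 to 3.01 CPM in control pools. Of the 4360 windows of 50 bases in the Tmem229b transcripts, 246 (5.64%) also occur in Gm5423, so some reads are divided by estimate.

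Ephx2 (chr14, 66703214 to 66743337, minus strand) had 15.5, 16.8 and 23.6 CPM in Oct4 E9.5 induced pools, against 1.56, 2.74 and 2.18 CPM in controls, a log2 fold change of 3.08 ± 0.21. That level overlapped the one of E7.5 Oct4 embryos, which had 13.2, 20.6 and 15.5 CPM in induced pools and 18.7, 19.1 and 18.4 CPM in controls (log2 fold change -0.17 ± 0.15). In Nanog E7.5 it had 11.0, 9.91 and 7.99 CPM in induced pools and 14.1 and 13.3 CPM in controls, where every induced pool was the lower (log2 fold change -0.52 ± 0.19). In Nanog E9.5 it had 1.55, 2.78 and 2.18 CPM in induced pools and 1.79 and 1.54 CPM in controls, which overlapped.

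Pak1 (chr7, 104937051 to 105060891, plus strand) was the most even of the 9 genes, with group means that spanned 1.72-fold from lowest to highest, whereas those of C1ql2 spanned 66.3-fold. It had 103, 103 and 100.3 CPM in Oct4 E9.5 induced pools, against 58.8, 64.3 and 60.5 CPM in controls, a log2 fold change of 0.75 ± 0.05. The difference was small, the pools of a group lay close together, and the groups did not overlap. In Nanog E9.5 it had 63.3, 53.7 and 60.9 CPM in induced pools and 67.0 and 67.6 CPM in controls, so each induced pool was slightly the lower (log2 fold change -0.15 ± 0.08). At E7.5 its groups overlapped in both lines, with log2 fold changes of 0.11 ± 0.10 in Oct4 and -0.13 ± 0.12 in Nanog.

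In the Oct4 line at E9.5 the 4 neural tube markers summed to 121 to 128 CPM in induced pools and 164 to 183 CPM in controls, the 5 primitive blood markers to 5682 to 7000 CPM in induced and 4127 to 5387 CPM in control pools, and the 4 somite markers to 136 to 153 CPM in induced and 113 to 124 CPM in control pools. The 7 trophoblast markers summed to 33.5 to 38.3 CPM in induced and 14.9 to 23.6 CPM in control pools, with Tpbpa at 0 in both. Only 1 of these 7 passed the filter on low counts, and edgeR called it higher (9.29% of all genes called). The 5 node and notochord markers summed to 22.1 to 25.3 CPM in induced and 33.0 to 39.1 CPM in control pools. The part of these shifts in the values of Tmem229b, Ephx2 and Pak1 was not tested.

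Selenbp1 (chr3, 94736978 to 94748680, plus strand) was highest in Nanog E9.5. It had 11.4, 13.7 and 22.3 CPM in induced pools, against 2.59 and 2.34 CPM in controls, a log2 fold change of 2.71 ± 0.27. The third induced pool lay well above the other two, and all 3 were clear of the controls. In Oct4 E9.5 it had 4.61, 5.86 and 5.17 CPM in induced pools, against 3.84, 2.74 and 2.42 CPM in controls, also without overlap (log2 fold change 0.80 ± 0.23). At E7.5 all groups lay between 2.49 and 4.06 CPM. Of the 1810 windows of 50 bases in its transcripts, 869 (48.0%) also occur in Selenbp2, so reads are divided between the pair by estimate. Selenbp2 had 1.16, 0.490 and 1.09 CPM in Nanog E9.5 induced pools, against 0.247 CPM in each control, and with the counts of both genes summed the log2 fold change was 2.65. The 5 primitive blood markers summed to 1225 to 1697 CPM in Nanog E9.5 induced pools and 4527 to 5969 CPM in controls, and their part in the Selenbp1 and Trh values was not tested.

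**Figure D2:**
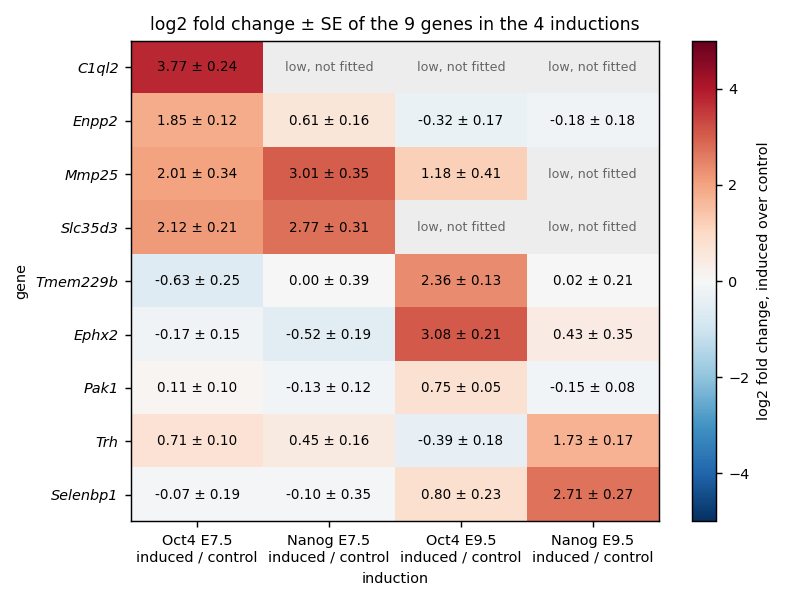
Log2 fold change of induced over control pools, ± SE, for each gene (down) and induction (across), from edgeR. Red cells are higher on induction and grey cells were filtered out as low; Mmp25 and Slc35d3 are red in both E7.5 columns, Tmem229b and Ephx2 in the Oct4 E9.5 column, and Trh and Selenbp1 in the Nanog E9.5 column.

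Of the 9 genes, 9, 8, 7 and 6 passed the filter on low counts in Oct4 E7.5, Nanog E7.5, Oct4 E9.5 and Nanog E9.5. At an edgeR adjusted p under 0.05, 5, 3, 4 and 2 of them were called higher and 0 lower, where 2.25%, 2.96%, 4.69% and 15.4% of all genes tested were called higher and 3.91%, 4.82%, 4.61% and 13% lower. These counts follow from the choice of the genes, and nothing is read from them. The 4 inductions share no pools, and no difference between inductions was tested for these genes, since the same contrasts chose them.

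Per kilobase of exonic length, the highest group mean was that of Trh, at 118 CPM per kb in Oct4 E7.5 induced pools, followed by Pak1 at 27.1 CPM per kb in Oct4 E9.5 induced pools and Enpp2 at 20.1 CPM per kb in Oct4 E7.5 induced pools. Even at their highest, C1ql2 (5.17 CPM per kb), Slc35d3 (4.84), Mmp25 (2.90), Tmem229b (5.82), Selenbp1 (6.96) and Ephx2 (8.65) stayed below these levels.

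Development without induction gave contrasts that the choice of genes did not use, although they share the control pools with the inductions. In the Oct4 line, E9.5 controls differed from E7.5 controls in 7 of the 9 genes, 1 higher and 6 lower, and in the Nanog line in 6 of 8, 1 higher and 5 lower (edgeR adjusted p under 0.05). Over all genes tested 73.5% were called in the Oct4 line (36.5% higher and 37.1% lower). In the Nanog line it was 63.8% (31.8% higher and 32% lower), so the totals are near the background. More of the 9 genes were lower than higher, and nothing is read from this, since the choice used the same control pools. In the Oct4 line C1ql2 passed the filter through its E7.5 pools (23 to 27 counts, against 0 to 3 at E9.5), so it could only be called lower. In the Nanog line Slc35d3 passed in the same way (12 to 16 counts at E7.5, against 5 to 9 at E9.5). Mmp25 did so there too (8 to 10 counts, against 4 to 9). The calls of these genes in these lines, and their adjusted p-values below, are therefore a description. The groups also differ in the embryos per pool and in the short gene models given above, which cannot be told apart from stage. The 9 visceral endoderm markers summed to 4326 to 5552 CPM in Oct4 E7.5 controls and 110 to 122 CPM at E9.5. In Nanog controls they summed to 3380 to 3822 CPM and 101 to 125 CPM. The 5 epiblast markers summed to 745 to 881 CPM in Oct4 E7.5 controls and 103 to 107 CPM at E9.5. In Nanog controls they summed to 762 to 763 CPM and 98.7 to 105 CPM. Summed markers of trophoblast, of node and notochord and of maternal decidua were also lower at E9.5 in both lines. Those of leukocytes and of megakaryocytes and platelets were lower in the Nanog line and overlapped in the Oct4 line. Those of primitive blood, heart, neural tube and somite were higher in both lines. The part of these tissues in the stage differences was not tested. The pools are separate by label, and p-values measure the spread between them. By limma-voom 7 of 9 genes were called in the Oct4 line and 6 of 8 in the Nanog line. DESeq2 called 7 of 9 in the Oct4 line and 4 of 8 in the Nanog line. Over all genes in the Nanog line DESeq2 called 3651 higher and 3793 lower of 14872 tested.

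Trh fell most with stage. It had 6.54, 7.54 and 7.51 CPM in E9.5 Oct4 controls, against 109.5, 100.2 and 94.7 CPM at E7.5, and fell by 3.76 ± 0.09 on the log2 scale (edgeR adjusted p = 1.85e-10). In the Nanog line it had 5.49 and 8.14 CPM at E9.5, against 97.5 and 74.7 CPM at E7.5, and fell by 3.68 ± 0.23 (edgeR adjusted p = 0.000159). Ephx2 fell by 3.03 ± 0.16 in the Oct4 line (adjusted p = 3.67e-08) and by 3.07 ± 0.23 in the Nanog line (adjusted p = 8.22e-08). No E9.5 control of either gene came near an E7.5 control.

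Slc35d3 fell by 1.84 ± 0.28 in Oct4 controls (edgeR adjusted p = 0.000133) and by 2.09 ± 0.50 in Nanog controls (adjusted p = 0.00238, and 0.057 without E9.5 control pool 3). Enpp2 fell by 1.07 ± 0.14 in Oct4 controls (edgeR adjusted p = 3.92e-05) and by 0.53 ± 0.15 in Nanog controls (adjusted p = 0.00869, and 0.0691 by DESeq2). C1ql2 fell by 2.53 ± 0.68 in Oct4 controls (edgeR adjusted p = 0.0059), a value that rests on 4 counts over the 3 E9.5 pools and was -4.04 without E9.5 control pool 3 and -1.71 without E9.5 control pool 2, and was filtered out as low in Nanog controls. Tmem229b alone rose with stage, by 1.44 ± 0.22 in Oct4 controls (edgeR adjusted p = 0.000111) and 1.22 ± 0.32 in Nanog controls (adjusted p = 0.004, and 0.0624 without E7.5 control pool 3).

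Mmp25, Pak1 and Selenbp1 gave less firm values. Mmp25 differed by -0.79 ± 0.39 in Oct4 controls (edgeR adjusted p = 0.088, and 0.0133 without E9.5 control pool 3) and by -1.56 ± 0.58 in Nanog controls (adjusted p = 0.0298), a call lost without any 1 of the 4 Nanog pools (adjusted p 0.0686 to 0.31). Pak1 differed by -0.19 ± 0.07 in Oct4 controls (edgeR adjusted p = 0.0266), and the call was lost without E7.5 control pool 3 (0.0587), E9.5 control pool 1 (0.0903) or E9.5 control pool 3 (0.0699). In Nanog controls Pak1 had a log2 difference of 0.00 ± 0.07 (edgeR adjusted p = 0.963). Selenbp1 had log2 differences of -0.03 ± 0.23 in Oct4 controls (edgeR adjusted p = 0.912) and -0.46 ± 0.33 in Nanog controls (adjusted p = 0.239).

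**Figure D3:**
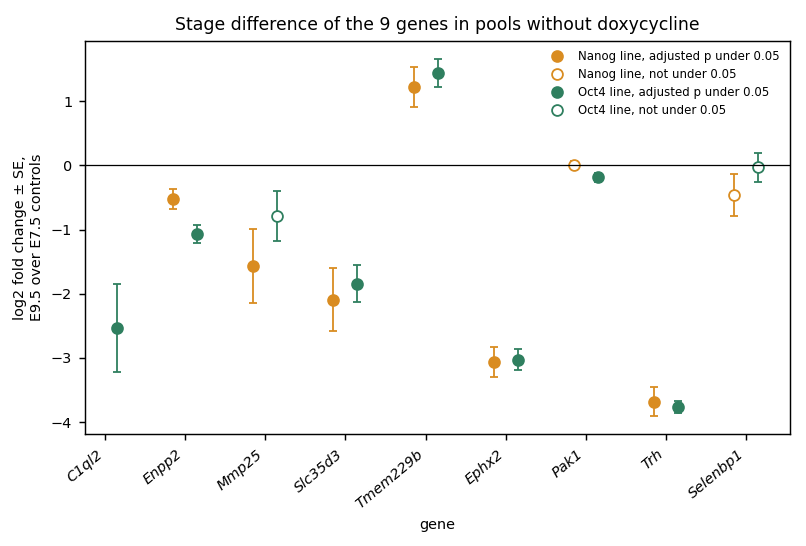
Log2 fold change of E9.5 over E7.5 control pools, ± SE, for each gene, with Nanog line in orange and Oct4 line in green; filled points had an edgeR adjusted p under 0.05. Trh and Ephx2 lie between -3.03 and -3.76 in both lines, Tmem229b lies above 0, and C1ql2 has no Nanog point because it was filtered out as low.

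Control pools of the 2 lines were set side by side at each stage. At E7.5, 0 of 9 genes were called between Nanog and Oct4 controls, with log2 differences of -0.39 to 0.23 (edgeR, 7.05% of all genes called). Enpp2 and Ephx2 had an unadjusted p under 0.05 (2 of 9), with 13.5 to 14.6 CPM of Enpp2 in Nanog and 18.0 to 22 CPM in Oct4 controls. At E9.5, 0 of 7 were called, with log2 differences of -1.13 to 0.13 (edgeR, 25.6% of all genes called) and 0 at an unadjusted p under 0.05. The difference of the stage changes between the lines was called for 0 of 8 genes (edgeR, 15.6% of all genes called), with values of -0.81 to 0.53 and 1 at an unadjusted p under 0.05. DESeq2 and limma-voom also called 0 in each of these 3 comparisons. With 2 Nanog controls a stage, these intervals are wide for the low genes.

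Relatives of the 9 genes, in 8 lists of 96 genes, were tested in the inductions. In Oct4 E7.5, 10 of 80 tested relatives were called (12.5%, 5 higher and 5 lower), where 6.17% of all genes were. In Nanog E7.5 it was 5 of 71 (7.04%, 2 higher and 3 lower) beside 7.78%, in Oct4 E9.5 5 of 70 (7.14%, 4 higher and 1 lower) beside 9.29%, and in Nanog E9.5 18 of 64 (28.1%, 12 higher and 6 lower) beside 28.4%. The median log2 fold change of the relatives was -0.03, 0.08, 0.02 and 0.07 in that order, and that of all genes 0.02, 0.00, 0.00 and 0.00. Adjusted p-values of these genes are from edgeR over all genes tested. The shares of all genes given here also apply to the counts of each list below.

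Autotaxin's relatives and receptors changed in both directions at E7.5. Enpp3, another member of the ectonucleotide pyrophosphatase family, rose by 2.01 ± 0.26 in Nanog E7.5 (adjusted p = 0.00334) and 1.33 ± 0.27 in Oct4 E7.5 (adjusted p = 0.0222). Lpar3, a receptor for lysophosphatidic acid, had 2.02, 2.14 and 1.02 CPM in Nanog E7.5 induced pools, against 6.17 and 4.28 CPM in controls, and fell by 1.55 ± 0.37 (adjusted p = 0.0362). In Oct4 E7.5 Lpar3 fell by 1.0 ± 0.21 (adjusted p = 0.0254). Of 13 tested relatives in Oct4 E7.5 these 2 were called, and of 12 in Nanog E7.5 these and Lpar1, a further receptor, which fell by 0.48 ± 0.11 (adjusted p = 0.0367). At E9.5, Lpar4 rose by 0.30 ± 0.09 in Oct4 (adjusted p = 0.0465) and fell by 0.42 ± 0.10 in Nanog (adjusted p = 0.00615), and Lpar1 fell by 0.23 ± 0.07 in Oct4 (adjusted p = 0.0303). In Nanog E9.5 the receptor Lpar6 fell by 0.24 ± 0.09 (adjusted p = 0.047) and the lipid phosphatase Ppap2c rose by 0.37 ± 0.14 (adjusted p = 0.0494).

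Other matrix metalloproteinases and their inhibitors were called in both directions at E7.5. In Oct4 E7.5, 5 of 12 were called, 1 higher and 4 lower, beside 6.17% of all genes. Mmp2, a gelatinase, had 28.7, 20.4 and 25.4 CPM in induced pools, against 53.9, 45.2 and 51.6 CPM in controls, and fell by 0.99 ± 0.14 (adjusted p = 0.00357). The inhibitor Timp2 fell by 1.01 ± 0.14 (adjusted p = 0.0032), Mmp11 by 0.85 ± 0.17 (adjusted p = 0.022) and Mmp15 by 0.36 ± 0.08 (adjusted p = 0.0312), while the inhibitor Timp3 rose by 0.49 ± 0.12 (adjusted p = 0.0457). In Nanog E7.5, 2 of 12 were called, beside 7.78% of all genes: Timp3 rose by 1.24 ± 0.23 (adjusted p = 0.0216) and Mmp15 fell by 0.51 ± 0.11 (adjusted p = 0.0287). At E9.5 the calls were few and all higher, where 28.4% of all genes were called in Nanog E9.5 and 9.29% in Oct4 E9.5. Those of Mmp11, Reck and Mmp17 at E9.5 were lost when some single pools were left out. In Nanog E9.5 the membrane-type proteases Mmp15 (0.55 ± 0.09, adjusted p = 0.000491) and Mmp14 (0.42 ± 0.07, adjusted p = 0.000812) rose with Mmp11 (0.51 ± 0.15, adjusted p = 0.0182), 3 of 10 tested. In Oct4 E9.5 the inhibitor Reck rose by 0.35 ± 0.08 (adjusted p = 0.00848) and Mmp17 by 0.62 ± 0.17 (adjusted p = 0.0339), 2 of 12.

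Of the sulfide enzymes listed with Selenbp1, 2 of 7 were called in Oct4 E7.5, where Selenbp1 itself had a log2 fold change of -0.07 ± 0.19. Cth, cystathionine gamma-lyase, had 60.1, 76.3 and 56.8 CPM in induced pools, against 36.4, 41.6 and 39.1 CPM in controls, and rose by 0.74 ± 0.11 (adjusted p = 0.00514). Cbs, cystathionine beta-synthase, rose by 0.74 ± 0.12 (adjusted p = 0.00851). In Nanog E9.5, where Selenbp1 was highest, 1 of 6 was called, Mpst, a sulfurtransferase, which rose by 0.48 ± 0.13 (adjusted p = 0.0127). The other two inductions had 0 calls by edgeR, of 7 in Nanog E7.5 (5 at an unadjusted p under 0.05) and of 6 in Oct4 E9.5 (1).

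Partners of Pak1 are given beside the share of all genes called, and no difference between inductions was tested for them. In Oct4 E9.5, where Pak1 itself was high, edgeR called 0 of 15 (9.29% of all genes) and 6 had an unadjusted p under 0.05, and in the E7.5 inductions it called 0 of 18 in Oct4 (3 unadjusted, 6.17% of all genes) and 0 of 17 in Nanog (2 unadjusted, 7.78%). In Nanog E9.5, 8 of 14 were called, 4 in each direction, beside 28.4% of all genes. The kinase Pak4 had 72.8, 95.2 and 76.5 CPM in induced pools, against 57.1 and 50.6 CPM in controls, and rose by 0.63 ± 0.11 (adjusted p = 0.00107). The scaffold Git1 rose by 0.50 ± 0.11 (adjusted p = 0.00714), while the adaptor Nck1 fell by 0.32 ± 0.08 (adjusted p = 0.0105) and the GTPase Cdc42 by 0.22 ± 0.06 (adjusted p = 0.0149).

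Few relatives of the remaining genes were called. Pcsk1, a convertase that cleaves prohormones such as that of Trh, had 3.72, 3.52 and 3.52 CPM in Oct4 E9.5 induced pools, against 1.77, 1.0 and 1.09 CPM in controls, and rose by 1.53 ± 0.28 (adjusted p = 0.00187). It was 1 of 5 tested genes of hormone handling, in an induction in which Trh was not high, and edgeR called 0 of 4 in Nanog E9.5 (0 unadjusted), 0 of 6 in Oct4 E7.5 (1) and 0 of 5 in Nanog E7.5 (0). Of the C1q-like family and its receptors, C1ql3 rose by 1.69 ± 0.38 in Oct4 E7.5 (adjusted p = 0.033, 1 of 7), and C1ql1 (1.2 ± 0.39, adjusted p = 0.034) and the neurexin Nrxn2 (0.81 ± 0.21, adjusted p = 0.00846) rose in Nanog E9.5 (2 of 3). The list had 0 calls by edgeR in Nanog E7.5 (of 3, with 0 unadjusted) and Oct4 E9.5 (of 4, with 1). Of 13 SLC35 transporters, Slc35a4 rose by 0.25 ± 0.06 in Nanog E9.5 (adjusted p = 0.00837), and edgeR called 0 in Oct4 E7.5 (1 unadjusted), Nanog E7.5 (0) and Oct4 E9.5 (0). Of the epoxide enzymes, 2 to 4 were tested per induction and edgeR called 0 (1 unadjusted in Oct4 E7.5).

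The calls of Timp2, Mmp2 and Cth in Oct4 E7.5, Pcsk1 in Oct4 E9.5 and Mmp15, Mmp14, Pak4 and Git1 in Nanog E9.5 held whichever pool was left out, and each of the others was lost in at least 1 such fit. In Oct4 E7.5, 5, 4 and 7 of the 10 calls were lost without control pool 1, 2 or 3 (adjusted p 0.0582 to 0.173) and 3, 2 and 5 without induced pool 1, 2 or 3 (0.0512 to 0.149). In Nanog E7.5, 5 of 5 were lost without control pool 2 (0.0516 to 0.321), 4 without control pool 3 (0.125 to 0.195), 2 without induced pool 3 and 1 without induced pool 4 (0.0557 to 0.073). In Oct4 E9.5, 2, 4 and 3 of 5 were lost without control pool 1, 2 or 3 (0.0517 to 0.229) and 3, 1 and 4 without induced pool 3, 4 or 5 (0.064 to 0.365). In Nanog E9.5, 13 and 12 of 18 were lost without control pool 2 or 3 (0.0515 to 0.353) and 3, 7 and 4 without induced pool 1, 2 or 3 (0.0517 to 0.266). Where a Nanog control is left out, the lone control is taken to vary like the induced pools.

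**Figure D4:**
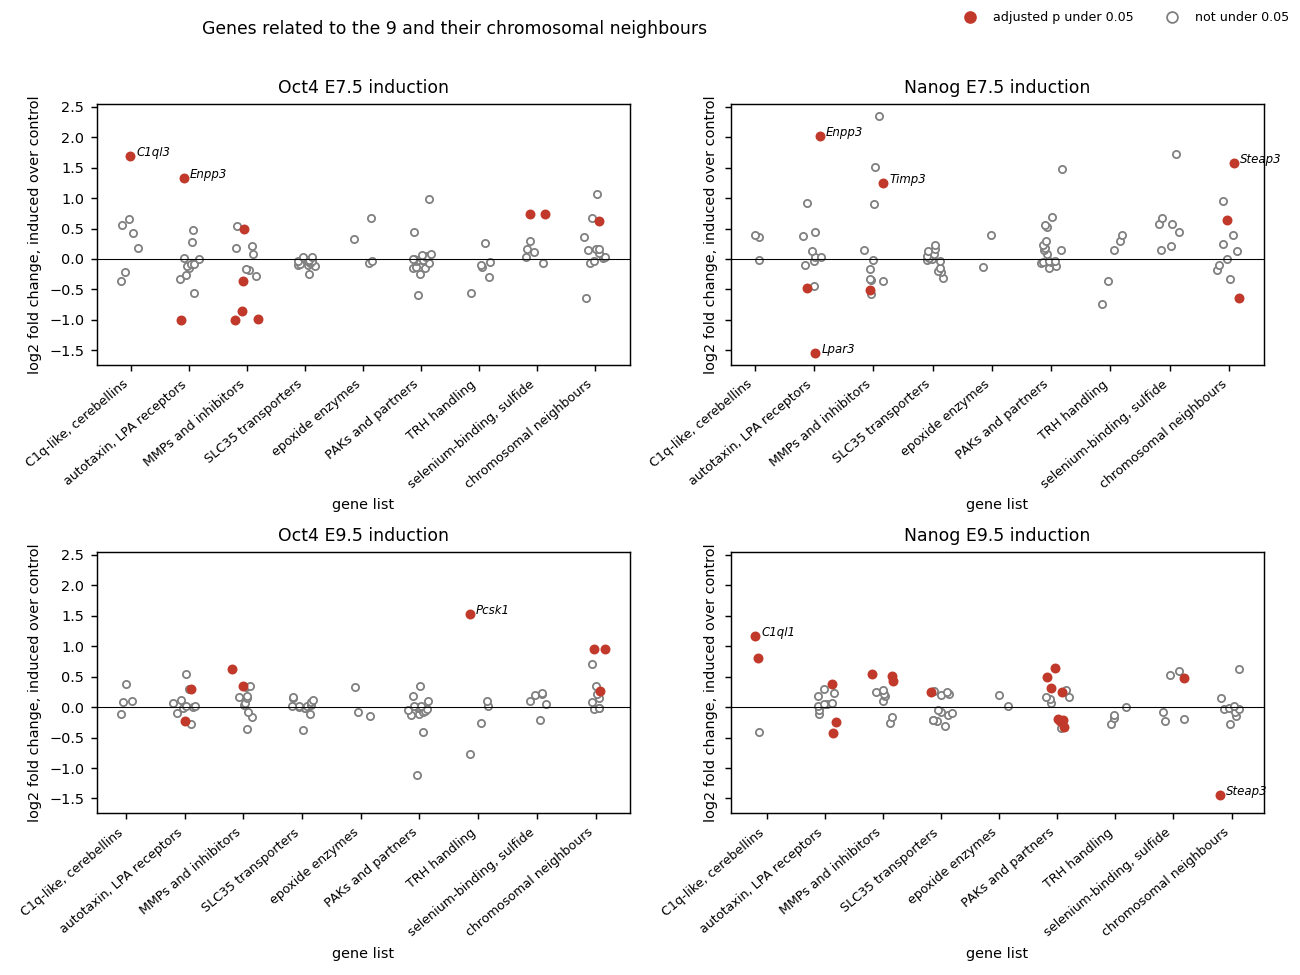
Log2 fold change of induced over control pools for the relatives of the 9 genes by list and for their chromosomal neighbours, 1 panel per induction; red points had an edgeR adjusted p under 0.05 and those beyond 1.1 in size are named. Enpp3 is above 0 and Lpar3 below 0 in Nanog E7.5, Pcsk1 is the highest point in Oct4 E9.5, and Steap3 is above 0 in Nanog E7.5 and below 0 in Nanog E9.5.

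The nearest protein-coding genes on either side, 18 in all, were read in the same fits. Called were 1 of 13 in Oct4 E7.5 (6.17% of all genes), 3 of 11 in Nanog E7.5 (7.78% of all genes), 3 of 11 in Oct4 E9.5 (9.29%) and 1 of 10 in Nanog E9.5 (28.4%). Zscan10, a zinc finger factor of embryonic stem cells that lies 18.4 kb from Mmp25, rose in 3 inductions. It rose by 0.64 ± 0.09 in Nanog E7.5 (edgeR adjusted p = 0.00506, and 0.0771 or 0.0812 without control pool 2 or 3). In Oct4 E7.5 it rose by 0.63 ± 0.14 (adjusted p = 0.0313, and 0.0851 without induced pool 3 and 0.112, 0.11 and 0.127 without control pool 1, 2 or 3), and in Oct4 E9.5 by 0.96 ± 0.20 (adjusted p = 0.00421), a call that held without any 1 pool. Ccdc64b, on the other side of Mmp25 at 15.3 kb, had a log2 fold change of 1.07 ± 0.32 in Oct4 E7.5 that did not pass (adjusted p = 0.0967).

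Steap3, a metalloreductase of iron uptake 67.9 kb from C1ql2, was called in both Nanog inductions, where C1ql2 was filtered out as low. It had 7.52, 9.33 and 9.73 CPM in Nanog E7.5 induced pools, against 2.56 and 3.24 CPM in controls, and rose by 1.58 ± 0.27 (edgeR adjusted p = 0.00945, and 0.112 or 0.08 without control pool 2 or 3). In Nanog E9.5 it had 1.74, 3.27 and 5.08 CPM in induced pools, against 8.82 and 10.05 CPM in controls, and fell by 1.44 ± 0.26 (adjusted p = 0.00101). The summed primitive blood markers were lower in the induced pools of both Nanog inductions, and their part in the Steap3 values was not tested. In Oct4 E7.5, where C1ql2 was high, Steap3 had a log2 fold change of 0.67 ± 0.21 that did not pass (adjusted p = 0.115). Both neighbours of Tmem229b rose in Oct4 E9.5. Plek2 rose by 0.96 ± 0.29 (edgeR adjusted p = 0.0479, and 0.0874 to 0.212 without induced pool 3 or 4 or control pool 2 or 3) and Plekhh1 by 0.27 ± 0.07 (adjusted p = 0.0183, and 0.0603 to 0.0703 without induced pool 4 or 5 or control pool 2). Plekhh1 fell by 0.64 ± 0.13 in Nanog E7.5 (adjusted p = 0.0231, and 0.17 or 0.181 without control pool 2 or 3), where Tmem229b had a log2 fold change of 0.00 ± 0.39.

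The genes whose levels ran most like each of the 9 were found by Pearson's r of log2(CPM + 1) over the 22 libraries, among 14294 genes. These libraries fall into groups by stage and induction, and they include the pools that chose the 9 genes. So r describes a shared order of groups and has no test. Slc35d3 ran with Fgf5 (r = 0.981), Mkrn1 (0.976) and Nodal (0.974), and Mmp25 with Tdgf1 (0.933), Zic2 (0.928) and Adam19 (0.926). Among the other genes high at E7.5, C1ql2 ran with Enpp2 (0.874), Cth (0.854) and Dll3 (0.843), Enpp2 with Cth (0.957), G3bp2 (0.955) and Nmnat2 (0.946), and Trh with Acy1 (0.965) and Atf7ip2 (0.965).

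Ephx2 ran with Wnt8a (r = 0.943), Pou5f1 (0.931) and Zfpm1 (0.896). The libraries include the Oct4 E9.5 induced pools, where Pou5f1 was induced and Ephx2 was high, so nothing is read from their r. At E7.5 Pou5f1 had log2 fold changes of 1.38 in Oct4 and 1.22 in Nanog, and Ephx2 had -0.17 and -0.52. Tmem229b ran with Egr2 (0.932), 1700109F18Rik (0.929) and Gdf10 (0.920). Selenbp1 ran with Lyve1 (0.857), Lrrc4 (0.771) and Moxd1 (0.749), and Pak1 with Ppp1r1b (0.796), Shisa6 (0.792) and Loh12cr1 (0.786). The 2 highest values between the 9 genes themselves were those of Mmp25 with Slc35d3 (0.915) and of C1ql2 with Enpp2 (0.874).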

How the data were processed

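RNA-seq libraries of 22 pools of whole mouse embryos were compared by transgene, stage and doxycycline. The deposited values are expected counts per gene, and the submitters' processing notes name cutadapt, RSEM, limma, Picard and build NCBIM37, with no order. The values are not normalized or filtered as far as they show. RSEM divides reads that fit several genes, and strand and the sequencer of each library are not given in the sources used here.

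Expected counts were rounded to whole numbers and tested by edgeR 4.0.16, quasi-likelihood F test (TMM scaling, filterByExpr, robust dispersions) in R 4.3.3, on the groups of each comparison alone, with two-sided Benjamini-Hochberg adjusted p under 0.05 as a call. The step was tested on simulated counts. Alternatives were RLE size factors, DESeq2 1.42.0, limma-voom 3.58.1, no filter, 1 model over all 22 libraries, a replicate block, leaving out each pool, and, chosen after seeing the data, summed Selenbp1 and Selenbp2 counts. Replicates of a group differed by more than sampling noise (chi-square per degree of freedom 1.60 to 67.1 over 20 pairs). Of the 37680 gene IDs, 37309 were found in GENCODE M1 (Ensembl 65), and no other gene model overlapped the 9 genes. Promoters are from RefSeq.

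Named were the 9 genes, every relative called in an induction (up to 4 per list and induction by lowest p, all if 5 or fewer were called), the nearest protein-coding neighbours, the 3 most alike genes of each, and Pou5f1 and Nanog. One of the most alike genes is not reported here. The genes and lists were chosen with earlier results of these data known. Cbln1 and Tmem229a, with 2 gene models each, were left out of the lists.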

Additional observations from a re-analysis of the deposited data

Results flagged for a closer look

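Between inductions that share a line or a stage, in 5 cases every induced pool lay above its controls in one induction and below its controls in the other. The difference between the inductions was not tested in any of them. The share of all genes with such an opposed order was not counted. With so few pools per group, full separation can also arise by chance, so nothing is read from the number of cases. Relatives and neighbours were listed only if edgeR called them in both inductions, while the 9 genes needed no call. The inductions also chose the 9 genes, so the differences of Tmem229b and Pak1 are a description. Tmem229b was higher in Oct4 E9.5 (log2 fold change 2.36) and lower in Oct4 E7.5 (-0.63), a difference of 2.99. Pak1 was higher in Oct4 E9.5 (0.75) and lower in Nanog E9.5 (-0.15), a difference of 0.91. Lpar4 was higher in Oct4 E9.5 (0.30) and lower in Nanog E9.5 (-0.42), a difference of 0.73. Mmp15 was higher in Nanog E9.5 (0.55) and lower in Nanog E7.5 (-0.51), a difference of 1.05. Steap3 was higher in Nanog E7.5 (1.58) and lower in Nanog E9.5 (-1.44), a difference of 3.02. No group had as many as 4 pools, so no single pool was tested for standing apart.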

How the results depend on the processing

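All 72 ratios of the 9 genes under other scalings moved by less than the spread between pools, and 334 of 335 induction fold changes did so under the alternatives, with Trh in Nanog E9.5 at 2.05 without control pool 3 as the exception. Of 187 alternatives for the stage differences, 168 kept direction and call, 14 lost the call, 1 gained it (Mmp25 in the Oct4 line) and 4 turned sign, all in genes that were not called: Selenbp1 in the Oct4 line ran from -0.24 to 0.11 and Pak1 in the Nanog line from -0.0097 to 0.015 when 1 pool was left out.

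The count of called relatives was less stable; the cause was not tested. In Oct4 E7.5 (10) it was 3 to 9 with 1 pool left out. In Nanog E7.5 (5) it was 8 by DESeq2, 2 by limma-voom, 10 without the filter, 17 in 1 model over all libraries and 0 to 8 with 1 pool left out. In Oct4 E9.5 (5) the values were 2 by DESeq2, 10 without the filter, 1 in 1 model and 1 to 4 with 1 pool left out. In Nanog E9.5 (18) they were 11 by DESeq2, 9 in 1 model and 5 to 17 with 1 pool left out.

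Replicate numbers were not used to pair the pools in the fits above, and whether they mark pairs was not tested. Deviations of same-numbered Oct4 E7.5 pools correlated at 0.287, 0.330 and 0.047. In the other comparisons they correlated at -0.164 (E7.5 controls of the lines) to 0.062. Over all genes, a replicate block gave 471 higher and 816 lower calls in Oct4 E7.5, beside 362 and 629 without it. In Nanog E9.5 it gave 1867 and 1492, beside 2045 and 1727. With the replicate block, called relatives were 8 in Oct4 E7.5 and 18 in Nanog E9.5, and called stage differences of the 9 genes 7 in Oct4 and 5 in Nanog controls, where the call of Mmp25, Nanog line controls E9.5 over E7.5, was lost (adjusted p = 0.0581). Induced and control pools of Oct4 E9.5 and of Nanog E7.5 share only 1 number, so no block was fitted there. At these depths, C1ql2 and Slc35d3 at E9.5 lie near the limit of 3 counts.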
